A study of Mus musculus with 16 samples.

Results

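The 36 genes described here encode the machinery of mitosis and of the G2/M transition. They were chosen by symbol and made up 36 of the 32286 gene rows in each of the 16 single-cell RNA libraries. The study asked how IACS-70654, an oral inhibitor of the bromodomain that the acetyltransferases CBP and P300 share, changes 2208L tumors and the bone marrow (BM) that supplies their neutrophils. 2208L is a transplantable mammary tumor, Trp53-null by its label, that was grown in WT BALB/c females implanted at 7 to 8 weeks of age. Tumor-bearing mice received vehicle (methylcellulose) or IACS-70654 on a 3-on/2-off schedule over 7 days (6 or 7 days for BM, on which the sources differ), and for tumors also anti–PD-1 or the combination of anti–PD-1 and IACS-70654. BM came from WT mice without a tumor (ctrl), 2208L tumor–bearing mice given vehicle and 2208L tumor–bearing mice given IACS-70654, each sorted as CD45+Ter119- cells and as Lin- c-Kit+ CD45+ cells, which hold hematopoietic stem and progenitor cells (HSPCs). Each of these 6 BM groups had 2 libraries and each of the 4 tumor conditions had 1. A library pooled the cells of 3 mice, and no source states that the 2 BM libraries of a group were separate pools, so p-values may measure technical spread only.

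A dividing cell builds these genes up in G2 and mitosis and shuts them off on leaving the cycle. Cyclin B with Cdk1 drives entry into mitosis, the Aurora, Polo and Bub kinases attach and check the chromosomes, kinesins and spindle proteins move them, and the anaphase-promoting complex (APC/C) with Cdc20 and Ube2c then marks cyclin B and other proteins for destruction. In BM, neutrophil precursors divide while they make azurophil and then specific granules, and immature and mature neutrophils have left the cycle.

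The members were ordered by role. Cdk1, Ccna2, Ccnb1, Ccnb2, Cdc25c, Cks2 and Cdkn3 belong to the cyclin–CDK engine, and Plk1, Aurka, Aurkb, Bub1, Bub1b and Ttk are kinases of mitosis and of the spindle checkpoint. Cdc20 and Ube2c are the activator and the E2 enzyme of the APC/C. Kif11, Kif15, Kif20a, Kif20b, Kif23 and Kif2c are kinesins, and Cenpa, Cenpe, Cenpf, Ndc80, Nuf2 and Spc25 belong to centromere and kinetochore. Tpx2, Nusap1, Hmmr, Top2a and Mki67 act on spindle and chromosomes, and Prc1, Anln, Ect2 and Birc5 serve cytokinesis and the chromosomal passenger complex. All 36 had UMIs in both BM sorts and in tumors.

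Genes of this kind are known to share promoter elements, CCAAT boxes bound by NF-Y and the cell cycle genes homology region (CHR) bound by the DREAM, B-Myb–MuvB and FoxM1 complexes. RefSeq promoters (GRCm38.p6, the assembly of mm10, which the submitters' processing notes name) were at hand for 31 of the 36 members, and Cdc25c, Ccna2, Kif20a, Aurkb and Tpx2 had no entry. Shown are the 200 bases before the start of Cenpf, Cdkn3, Nusap1 and Ube2c, the 3 members with the largest changes in neutrophil precursors and a member that recurs across BM and tumor classes, on the coding strand, 5′ to 3′, with CCAAT and CHR (TTTGAA or TTCGAA) matches on either strand in capitals.
Cenpf (chr1:189688087-189688286, minus strand): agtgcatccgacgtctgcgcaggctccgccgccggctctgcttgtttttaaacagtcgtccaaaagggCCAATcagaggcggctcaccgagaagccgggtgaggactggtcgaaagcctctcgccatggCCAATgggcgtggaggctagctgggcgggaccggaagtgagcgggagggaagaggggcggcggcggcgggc
Cdkn3 (chr14:46760341-46760540, plus strand): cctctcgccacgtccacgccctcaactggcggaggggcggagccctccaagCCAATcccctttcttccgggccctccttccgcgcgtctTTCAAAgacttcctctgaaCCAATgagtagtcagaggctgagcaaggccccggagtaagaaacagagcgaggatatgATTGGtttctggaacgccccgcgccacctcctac
Nusap1 (chr2:119618098-119618297, plus strand): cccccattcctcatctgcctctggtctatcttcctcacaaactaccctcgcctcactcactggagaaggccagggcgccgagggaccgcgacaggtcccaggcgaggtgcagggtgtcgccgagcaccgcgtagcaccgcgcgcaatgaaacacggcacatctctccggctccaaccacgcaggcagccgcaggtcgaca
Ube2c (chr2:164769729-164769928, plus strand): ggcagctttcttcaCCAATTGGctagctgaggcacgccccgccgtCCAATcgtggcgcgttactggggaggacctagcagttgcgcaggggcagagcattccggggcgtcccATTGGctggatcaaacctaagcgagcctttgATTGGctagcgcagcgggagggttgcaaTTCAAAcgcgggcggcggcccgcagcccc
In the 250 bases before the start, the Cenpf promoter held 2 CCAAT matches and 0 CHR matches, that of Cdkn3 held 3 and 1, that of Ube2c held 6 and 1, and that of Nusap1 held neither. CCAAT matches on opposite strands that overlap were counted separately. Of the 31 promoters, 23 (74.2%) held CCAAT, compared with 34.5% of all 27025 promoters of that length, and 17 (54.8%) held at least 2, compared with 10.5%. A CHR match was in 12 (38.7%), compared with 17.4%, and both elements were in 10 (32.3%), compared with 6.21%. Top2a had the most matches with 6 CCAAT and 4 CHR. A match is a description of the letters and not evidence of binding.

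RNA molecules were counted by unique molecular identifiers (UMIs), and a cell had to show over 200 but under 6000 genes, with mitochondrial genes taking no more than 10% of its UMIs. This left 4394 to 6154 cells per CD45+ library, 2836 to 7517 per HSPC library and 1974 to 5064 per tumor library, with median UMIs per cell of 4113 to 6596.5, 6712 to 9512 and 4724 to 6332. The upper gene limit, which can remove dividing cells, took out 0.173% to 1.35% of cells, and in the CD45+ libraries 0.273% and 0.425% with vehicle compared with 0.653% and 0.886% with IACS-70654. Ptprc, which encodes CD45, was at 799 to 946 CPM (UMIs scaled to the same total in each class and library) over all cells of the CD45+ libraries, and Kit at 99.6 to 154 CPM in the HSPC libraries and 6.7 to 19.4 CPM in the CD45+ libraries. Cells were clustered without 408 cell cycle genes, all members among them, and clusters are called "-like" by marker lists.

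Among the named classes of CD45+ BM cells, mitosis and G2/M RNA was highest in specific-granule-stage neutrophil precursors and far lower in the later stages of the lineage. That class held only a cluster led by mitotic genes and one led by S-phase genes. A cluster led by Ltf scored best for the same stage but was left unnamed, with 488 to 645 CPM. The rank holds for the class without that cluster. Both stages joined with it had means of 3627 CPM in ctrl, 3786 CPM with vehicle and 3404 CPM with IACS-70654. The summed level of the 36 members in specific-granule-stage precursor-like cells (markers such as Camp and Cebpe) was 6503 and 6321 CPM in ctrl, 6093 and 6264 CPM with vehicle and 6577 and 6168 CPM with IACS-70654. In azurophil-stage precursor-like cells (markers such as Mpo and Elane) it was 2915 and 2804, 3052 and 3499, and 3286 and 3231 CPM in the same order. Immature neutrophil-like cells held 184 to 252 CPM and mature neutrophil-like cells 282 to 339 CPM. The ranges of the precursor stages and of the later stages did not overlap in any library. Monocyte-like cells, with 2985 to 3624 CPM, lay near the azurophil stage, and B-lineage precursor-like cells, with 4819 to 5729 CPM in ctrl and vehicle and 3440 CPM in the 1 IACS-70654 library that held at least 20 of them, lay near the specific-granule stage.

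**Figure D1:**
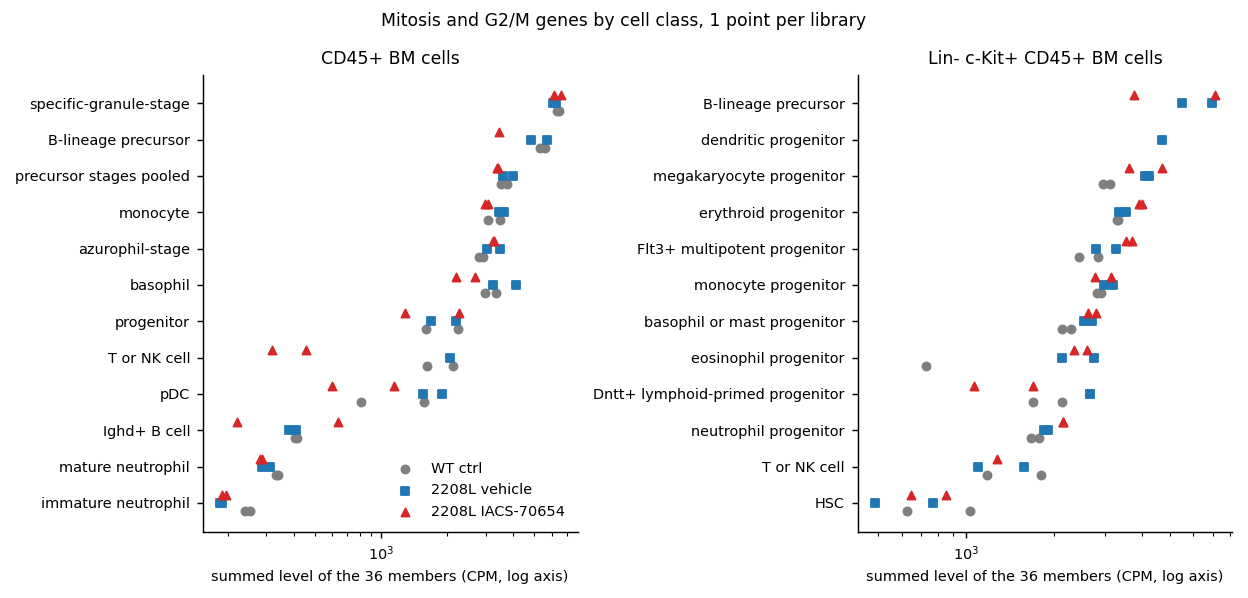
Summed level of the 36 mitosis and G2/M genes in each cell class (log axis, CPM), with 1 point per BM library and classes of at least 20 cells. Specific-granule-stage precursors, without the unnamed cluster led by Ltf, lie highest among the CD45+ classes shown at 6093 to 6577 CPM. Immature neutrophils lie lowest at 184 to 252 CPM, and in Dntt+ lymphoid-primed progenitors the IACS-70654 libraries lie below the vehicle libraries.

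Single members differed widely in level within the specific-granule stage. Means over the 6 libraries ran from 20.4 CPM for Cdc25c, the phosphatase that activates Cdk1, to 621 CPM for Mki67, which encodes the Ki-67 protein of the chromosome surface. Ube2c and Top2a, the topoisomerase that untangles chromosomes, were both at 571 CPM and Cks2, a small subunit of the Cdk1 complex, at 526 CPM. By role, spindle and chromosome proteins summed to 1774 CPM, the cyclin–CDK engine to 1209, centromere and kinetochore to 822, cytokinesis to 804, the APC/C pair to 677, kinesins to 671 and mitotic kinases to 364 CPM. In mature neutrophil-like cells the order was different. The cyclin–CDK engine led with 134 CPM, of which Cks2 held 112 CPM, and spindle and chromosome proteins were at 42.0 CPM. The 3′ assay counts 1 end per RNA molecule, so levels of different genes were not divided by length.

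To examine the effect of IACS-70654 on the lineage, UMIs were summed per class and library, the quasi-likelihood test of edgeR was fitted to all genes, and p-values were adjusted by Benjamini-Hochberg. A call needed a log2 change beyond 0.5 in either direction with an adjusted p below 0.01. In these sums, fewer dividing cells and less RNA per dividing cell cannot be told apart. Shares of all genes printed beside BM counts belong to the main clusters with all libraries, and not to counts under an alternative. A pool was formed of the azurophil stage, the specific-granule stage and a cluster led by Ltf that was left unnamed (1055 to 1600 cells per library). The last scored best for the specific-granule stage but missed the naming rule, and Ltf is on the marker list of immature neutrophils. It held 39.2% to 48.1% of the pool. In these pooled precursors, 10 of 36 members fell with IACS-70654 compared with vehicle and 0 rose, where 23.3% of all tested genes were called and 9.79% were called lower. The median log2 change of the members was -0.46, and all 36 were fitted below 0. These values rest on TMM scaling, which set the treated libraries 0.30 lower on the log2 scale than CPM did (in the neutrophil classes taken singly the shift was 0.14 to 0.25). On CPM, 28 members had a lower and 8 a higher mean, and in 26 both IACS-70654 libraries lay below both vehicle libraries. The share of all genes with that order was not counted, so the 26 have no background to be read against. The classes depend on how libraries were aligned: clusters made without integration, which kept neutrophils of treated mice apart, left 2 calls, and the summed level of the pool was then 0.17 higher with IACS-70654 on the log2 scale of CPM, compared with -0.15 here.

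Cenpf (ENSMUSG00000026605), a kinetochore protein, had 115 and 99.8 CPM in ctrl, 104 and 132 CPM with vehicle and 90.5 and 82.6 CPM with IACS-70654 in these pooled precursors. Its fitted log2 change was -0.75 ± 0.08 (SE, adjusted p = 3.3e-08). Both treated libraries lay below all 4 others. Cdkn3 (ENSMUSG00000037628), a phosphatase that acts on CDKs, had 86.2 and 78.6 CPM in ctrl, 107 and 113 CPM with vehicle and 86.4 and 77.8 CPM with IACS-70654. It rose in tumor-bearing mice compared with ctrl (log2 0.60 ± 0.06, adjusted p = 1.9e-07) and fell with IACS-70654 (-0.72 ± 0.05, adjusted p = 2.2e-10), so that treated and ctrl libraries overlapped. Nusap1 (ENSMUSG00000027306), which bundles spindle microtubules, had 144 and 131 CPM in ctrl, 151 and 173 CPM with vehicle and 120 and 122 CPM with IACS-70654 (-0.72 ± 0.05, adjusted p = 2.4e-10). Kif23, a kinesin of the midbody, had 82.2 and 67.8, 69.5 and 81.5, and 58.6 and 55.2 CPM in the same order (-0.71 ± 0.07, adjusted p = 2.6e-08). Plk1, the Polo kinase, had 38.7 and 38.2, 44.0 and 49.0, and 37.7 and 34.6 CPM (-0.67 ± 0.07, adjusted p = 1.7e-08). For each of these 5 genes the IACS-70654 libraries lay below the vehicle libraries.

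The called members came from all roles, with 1 of 7 in the cyclin–CDK engine, 1 of 6 mitotic kinases, 1 of 2 APC/C genes, 2 of 6 kinesins, 2 of 6 centromere and kinetochore genes, 2 of 5 spindle and chromosome genes and 1 of 4 cytokinesis genes. Among the most abundant gene of each role, Mki67 had 329 and 298 CPM in ctrl, 354 and 395 CPM with vehicle and 320 and 312 CPM with IACS-70654 (-0.54 ± 0.05, adjusted p = 7.9e-09). Kif15, a kinesin of the bipolar spindle, had 122 and 115, 118 and 124, and 94.5 and 102 CPM (-0.59 ± 0.05, adjusted p = 9.7e-10). Birc5, which encodes survivin of the passenger complex, had 215 and 206, 208 and 233, and 197 and 187 CPM (-0.50 ± 0.05, adjusted p = 1.6e-08). All 3 were called. The other called members were Ndc80, a kinetochore protein (-0.65), and Cdc20, the APC/C activator (-0.51).

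The remaining leading genes missed the fold threshold. Ube2c had 301 and 313 CPM in ctrl, 308 and 340 CPM with vehicle and 283 and 283 CPM with IACS-70654 (-0.49 ± 0.05). Cenpa, the centromeric histone, had 142 and 137, 152 and 158, and 138 and 133 CPM (-0.49 ± 0.04). Bub1b, the checkpoint kinase BubR1, had 47.8 and 38.7, 41.8 and 44.2, and 45.5 and 42.3 CPM (-0.27 ± 0.07), and its vehicle and treated libraries overlapped. Cks2 had 397 and 398 CPM in ctrl, 335 and 359 CPM with vehicle and 373 and 381 CPM with IACS-70654. Cks2 (fitted change -0.17 ± 0.04) and Bub1b were among the 8 members whose mean CPM was higher with IACS-70654, against the sign of the fit. Aurkb, the kinase of the passenger complex, had the smallest fitted change (-0.09 ± 0.06, adjusted p = 0.21). At an adjusted p under 0.05 with no fold threshold, 34 of 36 members were lower, where 27.2% of genes were.

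**Figure D2:**
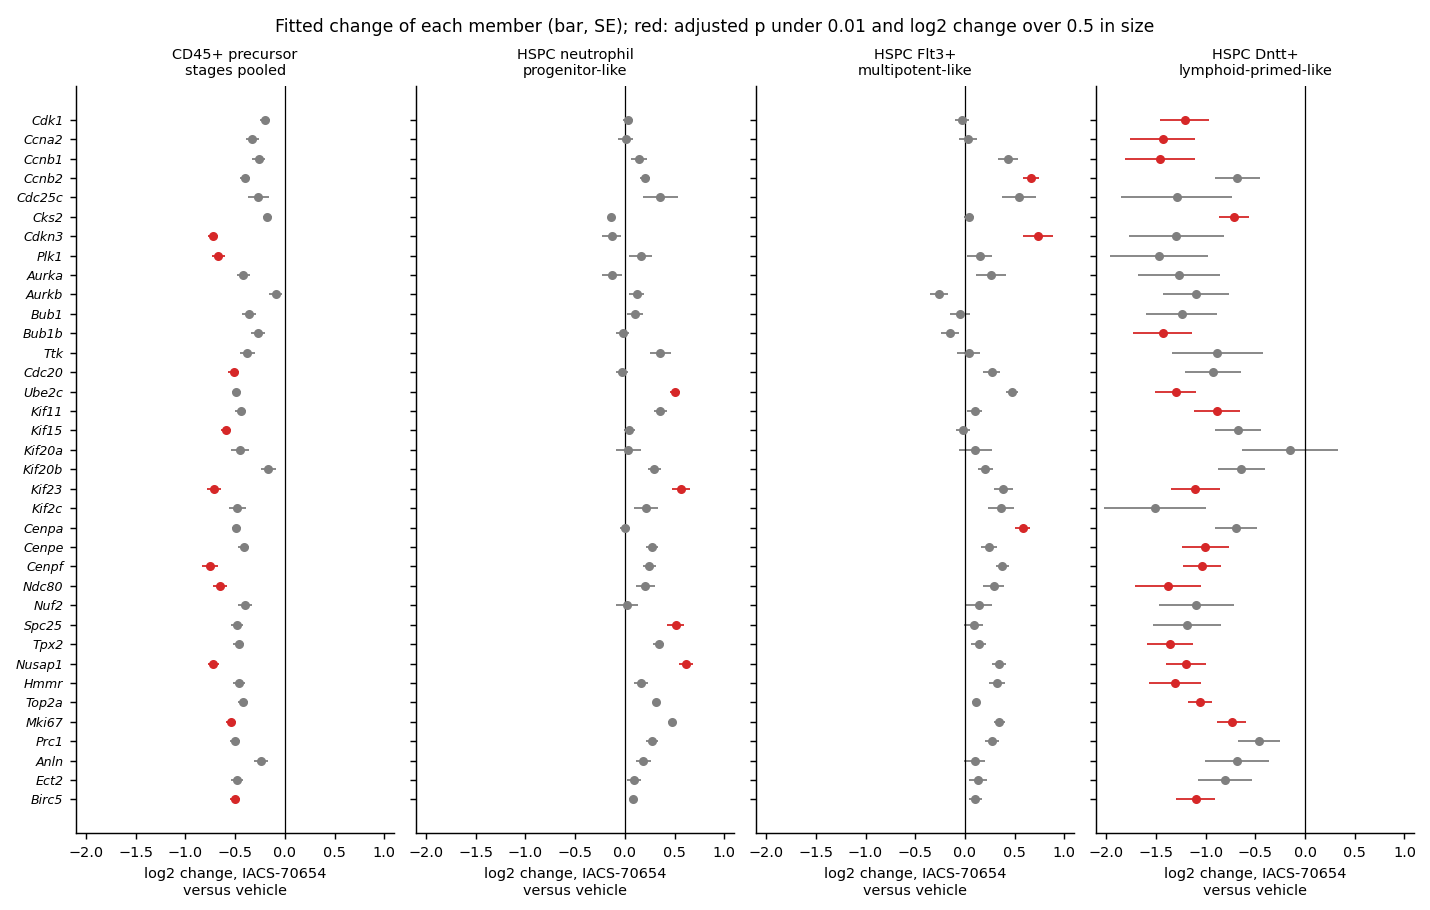
Log2 change of each of the 36 members with IACS-70654 compared with vehicle, fitted by edgeR (bars, SE), in pooled neutrophil precursors of the CD45+ sort and in 3 HSPC classes. On this TMM scale all members lie below 0 in the pooled precursors (8 had a higher mean on CPM), where 10 were called (red), 4 were called higher in neutrophil progenitors and 17 were called lower in Dntt+ lymphoid-primed progenitors.

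The composition of the precursor pool differed between treated and vehicle mice. The cluster led by mitotic genes, which was of the specific-granule stage, held 24.0% and 27.7% of precursor cells with vehicle, 17.3% and 18.2% with IACS-70654 and 21.8% and 20.6% in ctrl. The cluster led by S-phase genes, of the same stage, held 15.2% and 15.5% with vehicle, 9.2% and 10.7% with IACS-70654 and 15.7% and 13.6% in ctrl. One azurophil-stage cluster held 7.1% and 6.7% with vehicle compared with 21.2% and 21.0% with IACS-70654. In all 3 clusters the treated libraries did not overlap the vehicle libraries. Within the mitotic-led cluster, the summed member level was 7617 and 7765 CPM with vehicle and 8154 and 7981 CPM with IACS-70654, and in that azurophil-stage cluster it was 2066 and 2202 CPM and 2781 and 2831 CPM. In the S-phase-led cluster the order was the opposite, at 3610 and 3410 CPM with vehicle but 3305 and 2859 CPM with IACS-70654. Marker levels of the pool moved too. The 5 azurophil markers, all detected, summed to 5771 and 5043 CPM with vehicle and 16576 and 16818 CPM with IACS-70654, and the 5 specific-granule markers to 46079 and 47656 CPM and 32354 and 32162 CPM. Markers moved within clusters as well. In the mitotic-led cluster Elane was at 101 and 106 CPM with vehicle but 707 and 776 CPM with IACS-70654, and Ltf at 7308 and 7188 CPM but 4774 and 4315 CPM. The part of these shifts in the fall of the members was not tested.

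**Figure D3:**
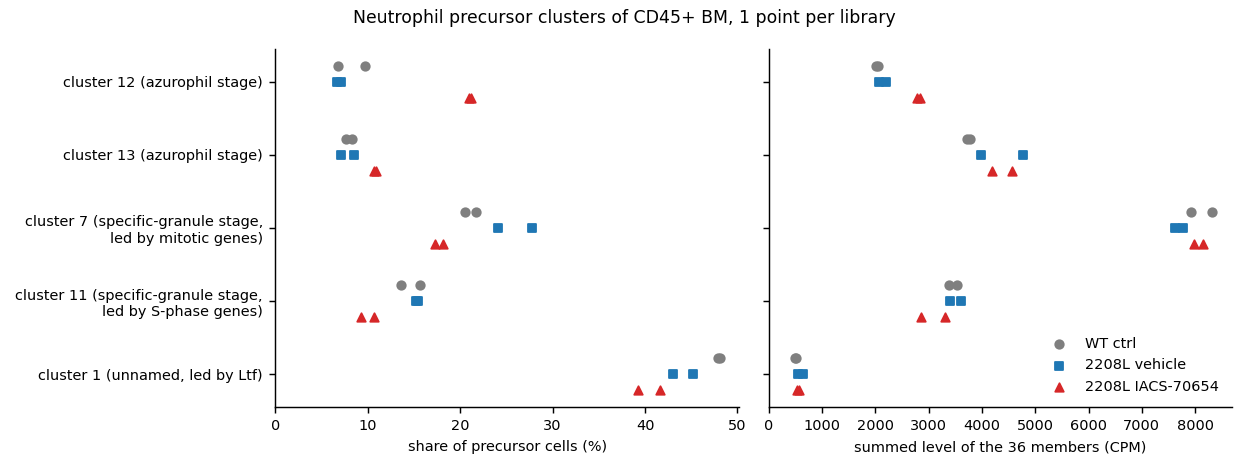
Share of neutrophil precursor cells in each of 5 clusters (left, %) and the summed member level within each cluster (right, CPM), with 1 point per CD45+ library. With IACS-70654 the mitotic-led cluster 7 holds 17.3% and 18.2% of precursors, below the vehicle libraries at 24.0% and 27.7%, and within it the member level is 8154 and 7981 CPM with IACS-70654 and 7617 and 7765 CPM with vehicle.

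Within the specific-granule stage alone, 0 of 36 members were called by edgeR with IACS-70654, where 9.21% of genes were called. Here 21 members had an unadjusted p under 0.05, where 36.3% of genes did, and 19 were lower at an adjusted p under 0.05, where 13.8% of genes were, with a median fitted log2 change of -0.17. DESeq2 called 0 at the same thresholds, and edgeR called 1 without IACS-70654 library 1. The direction depended on scaling, since 26 members had a higher and 10 a lower mean on CPM. This class left out the cluster led by Ltf. With that cluster joined more members were called, but no share of all genes is given for the joined class. Within the azurophil stage, 2 of 36 members fell and 0 rose, where 5.67% of genes were called lower. Members were thus called lower there no more often than genes at large. On CPM 19 members had a lower and 17 a higher mean there. Cdkn3 had 59.9 and 54.6 CPM in ctrl, 89.1 and 88.0 CPM with vehicle and 68.7 and 55.7 CPM with IACS-70654 (-0.66 ± 0.10, adjusted p = 3.6e-07). Plk1 had 32.2 and 30, 41.2 and 48.3, and 35.5 and 31.1 CPM (-0.58 ± 0.12, adjusted p = 2.2e-04). In both genes the treated libraries overlapped the ctrl libraries and lay below both vehicle libraries. Without the integration of libraries before clustering, 6 azurophil-stage members were called in the opposite direction. The direction of the azurophil-stage calls also reversed in clusters that admitted cell cycle genes. The count in the azurophil stage was 4 without vehicle library 1 and 1 without vehicle library 2 or IACS-70654 library 2, and in the pooled precursors it was 18 without vehicle library 1. DESeq2 called 1 in the azurophil stage and 11 in the pool.

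Tumor-bearing vehicle mice and ctrl mice were compared in the same way. The vehicle libraries are shared with the IACS-70654 comparison. In the pooled precursors 2 members rose, where 2.22% of genes were called higher, namely Cdkn3 and Kif20a, a kinesin of cytokinesis (log2 0.55 ± 0.11, adjusted p = 6.6e-04). In the azurophil stage 2 rose, where 1.12% were called higher, namely Cdkn3 (0.68 ± 0.12, adjusted p = 8.2e-05) and Hmmr, a spindle pole protein. Hmmr had 50.2 and 43.5 CPM in ctrl, 60.8 and 79.4 CPM with vehicle and 73.0 and 69.8 CPM with IACS-70654 (0.63 ± 0.13, adjusted p = 6.0e-04 for vehicle compared with ctrl). It stayed at vehicle levels in treated mice (-0.12 ± 0.10). In the specific-granule stage 0 were called by edgeR, where 2.87% of genes were called, with 14 members at an unadjusted p under 0.05 (24.1% of genes), and DESeq2 called 0. The azurophil-stage count was 0 without ctrl library 2 and 1 without ctrl library 1 or vehicle library 2, and the pooled count was 5 without vehicle library 1 and 1 without ctrl library 2. DESeq2 called 1 in each. TMM set vehicle libraries 0.18 higher than CPM in the pool and 0.04 higher in the azurophil stage, and on CPM 22 and 33 of 36 members had a higher mean than in ctrl.

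The cluster led by Ltf, whose member level of 488 to 645 CPM lay between the specific-granule stage and immature neutrophils, had the most calls between tumor-bearing and ctrl mice in the lineage. Here 9 of 35 tested members rose with vehicle, where 2.15% of genes were called higher, and 7 fell with IACS-70654, where 5.97% were called lower. Ube2c had 21.1 and 26.8 CPM in ctrl, 28.4 and 51.0 CPM with vehicle and 23.6 and 23.2 CPM with IACS-70654 (0.97 ± 0.15, adjusted p = 1.7e-07 for vehicle compared with ctrl, and -1.03 ± 0.13, adjusted p = 7.4e-11 for IACS-70654 compared with vehicle). Birc5 had 26.0 and 25.2, 36.2 and 42.7, and 33.8 and 23.4 CPM (0.84 ± 0.14 and -0.74 ± 0.12). The vehicle libraries of both genes lay above all others. Cenpe, a kinesin of the kinetochore (1.05), Mki67 (0.83), Hmmr (0.68), Ccnb2 (0.66), Cdkn3 (0.63), Cenpf (0.62) and Cenpa (0.55) rose as well, and Spc25 (-1.20), Cdk1 (-0.96), Cenpf (-0.56), Cenpa (-0.54) and Cenpe (-0.53) also fell with IACS-70654. Both counts were made with TMM scaling. It set vehicle libraries 0.22 higher than CPM relative to ctrl, so that the summed level differed by 0.46 on the log2 scale, compared with 0.24 on CPM, where 24 members had a higher and 12 a lower mean. It set treated libraries 0.25 lower relative to vehicle. On CPM 21 members had a lower and 15 a higher mean, and the summed level differed by -0.11 on the log2 scale with overlapping libraries, compared with -0.36 after TMM scaling. Without vehicle library 2, 4 rose and 3 fell. The fall comprised 2 members without IACS-70654 library 2, and DESeq2 called 3 and 1.

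The share of dividing cells was then measured as the share with RNA of at least 3 members among cells with at least 2000 UMIs. Each of these was thinned at random to 2000 UMIs so that depth did not differ. Cells with fewer UMIs were left out, so thinned shares describe the deeper cells of a class. The share was 0.864% to 1.74% in mature neutrophil-like cells, whose median depth was 2625 to 3995 UMIs, which is the background of this measure. In the pooled precursors it was 45.6% and 44.5% in ctrl, 51.4% and 55.0% with vehicle compared with 48.9% and 48.9% with IACS-70654. The difference between treated and vehicle mice was -4.35 percentage points (SD between replicates 1.79), and the libraries did not overlap. Without integration the difference was 15.6 points in the opposite direction. Without thinning the direction turned too, with 68.7% and 70.5% in vehicle libraries but 72.0% and 73.2% in treated libraries, whose cells had higher median UMIs (12214.5 and 12518.5, compared with 10312.5 and 10658). With 2 libraries per group an exact permutation test cannot go below p = 0.333, so shares and sums are given without a test.

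Both precursor stages showed the lower share. In the specific-granule stage it was 85.9% and 86.9% in ctrl, 90.9% and 90.7% with vehicle compared with 86.4% and 85.9% with IACS-70654. In the azurophil stage it was 64.3% and 61.1%, 70.3% and 74.9%, and 65.8% and 62.7% in the same order. In both stages the vehicle libraries lay above all 4 others. The azurophil class joined 2 clusters in a mix that differed between groups. The one with the lower member level held 89 of 196 and 99 of 203 azurophil-stage cells with vehicle but 269 of 404 and 336 of 511 with IACS-70654. Member levels in the other were 3982 and 4764 CPM with vehicle but 4571 and 4196 CPM with IACS-70654, which overlapped. The share of cells with S-phase RNA but without that of at least 3 members had the opposite order in the pooled precursors, at 9.05% and 8.40% with vehicle, 14.5% and 14.5% with IACS-70654 and 10.9% and 12.5% in ctrl.

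**Figure D4:**
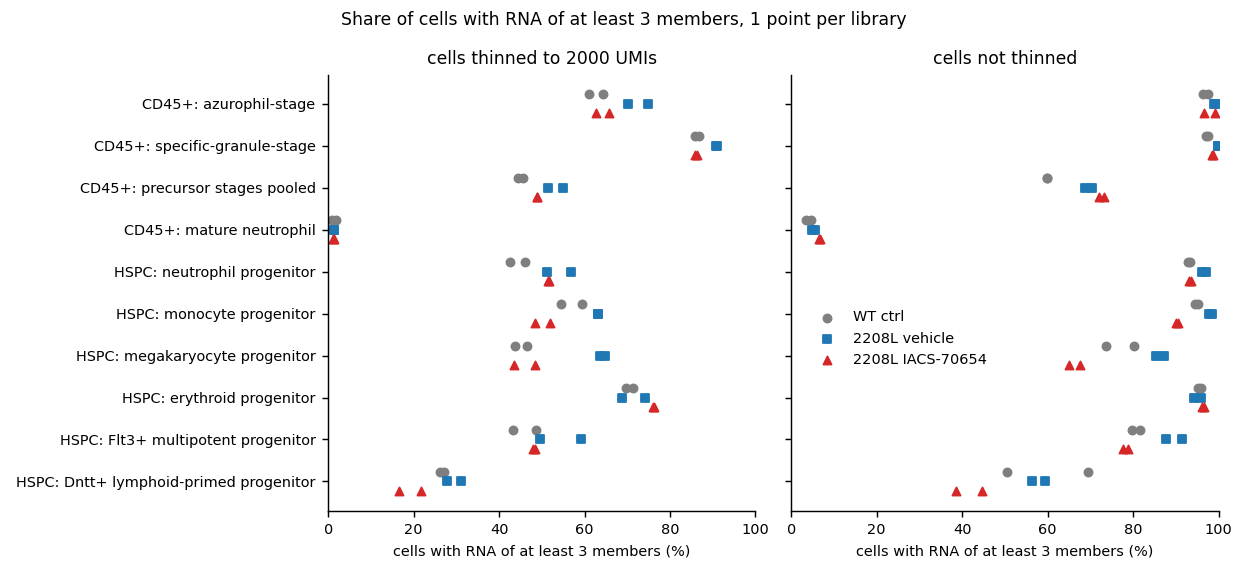
Share of cells with RNA of at least 3 members (%), by class and BM library, among cells with at least 2000 UMIs after thinning to 2000 (left) and among all cells without thinning (right). Pooled precursors lie at 51.4% and 55.0% with vehicle and 48.9% in both IACS-70654 libraries when thinned, whereas without thinning the IACS-70654 libraries lie higher at 72.0% and 73.2%, and megakaryocyte progenitors show the widest gap, with vehicle at 64.8% and 63.6% and IACS-70654 at 43.6% and 48.3%.

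Mature neutrophil-like cells hold little of this RNA, and with both directions together its members were called there no more often than genes at large. With IACS-70654, 5 of 35 tested members fell and 1 rose, where 21% of genes were called, 9.45% lower and 11.5% higher. Kif23 had 39.9 and 45.6 CPM in ctrl, 42.7 and 37.9 CPM with vehicle and 18.1 and 18.8 CPM with IACS-70654 (-1.32 ± 0.10, adjusted p = 3.2e-19). It was the most abundant member there after Cks2, and both treated libraries lay below all others. Cdk1 (-0.72), Ccnb2 (-0.63), Cenpa (-0.56) and Top2a (-0.51) also fell. Anln, an actin-binding protein of the cleavage furrow, rose against the majority, from 2.59 and 1.96 CPM with vehicle to 5.49 and 5.22 CPM (1.05 ± 0.28, adjusted p = 0.0011). Its ctrl libraries, at 2.20 and 6.05 CPM, spanned both. The count of called members was 2 without vehicle library 2 and 3 without any other single vehicle or IACS-70654 library, and DESeq2 called 2. In immature neutrophil-like cells 1 of 19 tested members, Kif23, fell (-0.95), where 5.4% of genes were called lower, and in vehicle mice compared with ctrl 1 member, Cks2, fell (-0.54), where 1.85% were called lower. The first call was lost without either vehicle library or IACS-70654 library 1, the second without ctrl library 1 or vehicle library 2, and both without the highest doublet scores or by DESeq2.

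Other CD45+ classes had few calls. In monocyte-like cells 1 of 36 fell, where 3.51% of genes were called lower. This was Cenpf, with 99.7 and 121 CPM with vehicle and 75.1 and 77 CPM with IACS-70654 (-0.52 ± 0.10, adjusted p = 2.5e-04), and 11 fell in clusters made without integration and 0 by DESeq2. On CPM 34 of 36 members had a lower mean, and in 30 both treated libraries lay below both vehicle libraries. The share of all genes with that order was not counted here either. The summed level differed by -0.22 on CPM and -0.21 after TMM scaling, with no overlap of libraries. In basophil-like cells 2 of 34 tested members fell, where 1.11% were called lower. Ect2, which activates the GTPase of the cleavage furrow, had 57.8 and 99.1 CPM with vehicle and 18.8 and 24.2 CPM with IACS-70654 (-1.93 ± 0.33, adjusted p = 0.0026), and Nusap1 had 133 and 175 CPM and 43.9 and 79.0 CPM (-1.37 ± 0.25, adjusted p = 0.0040). The count in basophil-like cells was 0 without vehicle library 2 or IACS-70654 library 1 and by DESeq2, and 13 of 27 tested without integration. The 1.11% and 3.51% belong to integrated clusters, and no such share is given for clusters without integration. In plasmacytoid dendritic (pDC)-like cells edgeR called 0 of 24, where 0.534% of genes were called, with 14 at an unadjusted p under 0.05 (12% of genes) and a median of -1. In all CD45+ cells together 4 of 36 fell, where 9.66% were called lower, and 2 fell without vehicle library 2. Cell classes are mixed in this count. The summed level over all CD45+ cells was 2176 and 2271 CPM with vehicle but 2120 and 2142 CPM with IACS-70654, and without the upper gene limit it was 2217 and 2315 CPM but 2203 and 2253 CPM, which overlapped.

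HSPC classes differed among themselves in direction. In neutrophil progenitor-like cells of the HSPC sort, 4 of 36 members rose with IACS-70654 and 0 fell, where 3.08% of genes were called higher. The summed level was 1779 and 1660 CPM in ctrl, 1841 and 1906 CPM with vehicle and 2150 and 2142 CPM with IACS-70654. The treated libraries lay above all 4 others. Nusap1, which fell in the CD45+ precursors, had 30.3 and 27.7 CPM in ctrl, 28.7 and 28.0 CPM with vehicle and 45.6 and 45.1 CPM with IACS-70654 (0.62 ± 0.07, adjusted p = 8.8e-17). Ube2c had 60.0 and 55.8, 59.1 and 62.9, and 90.0 and 86.9 CPM (0.50 ± 0.05, adjusted p = 1.6e-21). Kif23 had 19.5 and 16.1, 15.8 and 15.3, and 25.3 and 21.8 CPM (0.56 ± 0.09, adjusted p = 3.4e-08). Spc25, a kinetochore protein, had 20.0 and 14.7, 17.8 and 21.1, and 27.4 and 28.5 CPM (0.51 ± 0.09, adjusted p = 8.6e-08). In all 4 genes both treated libraries lay above both vehicle libraries, and the count was 2 without vehicle library 1 or IACS-70654 library 1 and 1 by DESeq2.

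Among the leading genes of each role in these progenitors, Mki67 had 97.3 and 85.2 CPM in ctrl, 98.6 and 102 CPM with vehicle and 143 and 146 CPM with IACS-70654 (0.47 ± 0.04), just under the fold threshold. Cks2 had 397 and 397 CPM with vehicle and 373 and 379 CPM with IACS-70654 (-0.14 ± 0.03). Cenpa (0.00), Kif15 (0.05), Birc5 (0.08) and Bub1b (-0.02) moved by less than 0.1. The thinned share with at least 3 members was 51.2% and 56.7% with vehicle compared with 51.5% and 51.7% with IACS-70654, which overlapped, while the UMIs of members per positive cell were 5.39 and 5.27 with vehicle compared with 6.57 and 6.39 with IACS-70654. The share with at least 5 members was 20.8% and 21.2% with vehicle compared with 26.8% and 26.0% with IACS-70654. In the same cells, the markers of late neutrophils summed to 447 and 479 CPM with vehicle and 2668 and 3026 CPM with IACS-70654. Their part in the result was not tested.

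The difference between the sorts was tested with an interaction term over both kinds of library. It was added after the data were seen, for classes whose calls already ran in opposite directions. The counts therefore describe a difference already seen. For 21 of 36 members the log2 effect of IACS-70654 was higher in HSPC neutrophil progenitors than in the pooled CD45+ precursors and for 0 lower, where 18.7% of genes were called, 6.39% higher and 12.3% lower. Against the azurophil stage alone, 7 were higher and 0 lower, where 4.44% of genes were called, 2.31% higher and 2.14% lower. Both contrasts use the same HSPC libraries. They were fitted with TMM scaling, which in the fits of single classes set treated libraries 0.30 lower than CPM in the pooled precursors, 0.14 lower in the azurophil stage and 0.05 lower in the HSPC progenitors. They use integrated clusters, and without integration the summed level was higher with IACS-70654 in the pooled precursors and in the HSPC progenitors, by 0.17 and 0.24 on the log2 scale of CPM.

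In Flt3+ multipotent progenitor-like cells, 3 of 36 members rose with IACS-70654 and 0 fell, where 2.63% of genes were called higher. Ccnb2, cyclin B2, had 57.3 and 88.3 CPM in ctrl, 77.4 and 67.9 CPM with vehicle and 119 and 119 CPM with IACS-70654 (0.67 ± 0.08, adjusted p = 1.4e-09). Cenpa had 74.7 and 88.7, 91.2 and 74.0, and 126 and 133 CPM (0.58 ± 0.07, adjusted p = 3.5e-09). Cdkn3 had 13.2 and 17.2, 15.6 and 10.4, and 22.9 and 24.5 CPM (0.74 ± 0.15, adjusted p = 1.2e-04). The treated libraries lay above all others in each, and the count was 7 without vehicle library 1 and 1 by DESeq2. The summed level was 2444 and 2824 CPM in ctrl, 3247 and 2787 CPM with vehicle and 3524 and 3704 CPM with IACS-70654. The class joined 2 clusters. In the smaller one, which took 14.1% and 13.4% of the class with vehicle compared with 16.2% and 18.3% with IACS-70654, members summed to 7322 and 7308 CPM with vehicle but 9135 and 9296 CPM with IACS-70654. In the larger one the sums, 2536 and 1986 CPM with vehicle but 2237 and 2312 CPM with IACS-70654, overlapped. The share of positive cells had the opposite order, at 59.2% and 49.5% with vehicle compared with 48.4% and 47.9% with IACS-70654. This difference of -6.18 percentage points was -1.31 without vehicle library 1, -11.0 without vehicle library 2, -0.31 for cells with at least 5 members and -1.19 without integration. Positive cells held 9.17 and 8.81 member UMIs with vehicle and 11.8 and 12.5 with IACS-70654. In tumor-bearing vehicle mice compared with ctrl, 2 members rose, where 0.536% were called higher, namely the checkpoint kinase Bub1 (0.60 ± 0.14, adjusted p = 0.0028) and Spc25 (0.59 ± 0.14, adjusted p = 0.0031). This count was 0 without ctrl library 1 or vehicle library 1, 1 without IACS-70654 library 1, 7 without integration and 0 by DESeq2.

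Dntt+ lymphoid-primed progenitor-like cells, which stand near the start of the lymphoid lineages, had the most members called with IACS-70654 of the BM classes tested. With IACS-70654, 17 of 36 members fell and 0 rose, where 2.22% of genes were called lower, with a median log2 change of -1.10. The summed level was 1690 and 2134 CPM in ctrl, 2652 and 2654 CPM with vehicle and 1693 and 1062 CPM with IACS-70654. Top2a had 235 and 274 CPM in ctrl, 344 and 343 CPM with vehicle and 190 and 154 CPM with IACS-70654 (-1.06 ± 0.12, adjusted p = 9.8e-10). Ccnb1, cyclin B1, had 15.3 and 26.5, 33.9 and 42.0, and 19.7 and 5.96 CPM (-1.46 ± 0.35, adjusted p = 0.0031). Bub1b had 24.2 and 32.7, 57.2 and 35.4, and 23.8 and 13.1 CPM (-1.43 ± 0.30, adjusted p = 4.7e-04). The treated libraries of these genes lay below the vehicle libraries, and those of Top2a and Bub1b below the ctrl libraries too.

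Ccna2, cyclin A2, had 40.2 and 35.4 CPM with vehicle and 18 and 10.7 CPM with IACS-70654 in the Dntt+ cells (-1.43 ± 0.33, adjusted p = 0.0018). Ndc80 had 42.4 and 31.0 CPM and 17.2 and 13.1 CPM (-1.38 ± 0.33, adjusted p = 0.0028), and Tpx2, an activator of Aurora A, had 90.0 and 66.4 CPM and 35.2 and 31.0 CPM (-1.36 ± 0.23, adjusted p = 1.4e-05). All 5 spindle and chromosome genes fell, as did 4 of 7 in the cyclin–CDK engine, 3 of 6 at centromere and kinetochore, 2 of 6 kinesins and 1 each of the mitotic kinases, the APC/C pair (Ube2c, -1.30 ± 0.21) and the cytokinesis genes (Birc5, -1.10 ± 0.20). The class was small, with 62 and 138 vehicle cells and 176 and 237 treated cells. The count was 5 without vehicle library 1, 4 without IACS-70654 library 2 and 1 by DESeq2. In clusters without integration, both the count and the fall of the summed level were smaller. The thinned share of positive cells was 31.2% and 27.9% with vehicle compared with 21.7% and 16.6% with IACS-70654, with 26.1% and 27.2% in ctrl. Stem cell markers summed to 642 and 630 CPM with vehicle and 915 and 890 CPM with IACS-70654 in this class, and their part was not tested. For 17 of 36 members the effect of IACS-70654 was higher in the Flt3+ class than in the Dntt+ class and for 0 lower, where 0.683% of genes were called, 0.533% higher and 0.15% lower, in a fit with the library as a block. This comparison, too, was added after the opposite calls of the 2 classes were seen.

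Among HSPC classes, megakaryocyte progenitor-like cells had the most calls between tumor-bearing and ctrl mice. Here 6 of 36 members rose with vehicle compared with ctrl and 0 fell, where 0.231% of genes were called higher. Nusap1 had 99.4 and 74.8 CPM in ctrl, 137 and 160 CPM with vehicle and 134 and 166 CPM with IACS-70654 (0.68 ± 0.13, adjusted p = 1.7e-04 for vehicle compared with ctrl). Ube2c had 210 and 201, 303 and 385, and 219 and 326 CPM (0.66 ± 0.10, adjusted p = 2.9e-07), and Cenpf had 140 and 152, 226 and 246, and 169 and 276 CPM (0.65 ± 0.11, adjusted p = 1.5e-05). Ccnb2 (0.65), Tpx2 (0.59) and Hmmr (0.57) rose as well. The vehicle libraries lay above the ctrl libraries in each. The count was 2 without either ctrl library, 3 without vehicle library 1 and 0 by DESeq2. With IACS-70654, edgeR called 0 of 36, where 5.31% of genes were called, with 7 at an unadjusted p under 0.05 (25.6% of genes). Here 1 fell without vehicle library 1, 3 fell without IACS-70654 library 2 and 1 rose without IACS-70654 library 1. The thinned share of positive cells was 43.7% and 46.6% in ctrl, 64.8% and 63.6% with vehicle compared with 43.6% and 48.3% with IACS-70654, while positive cells held 11.9 and 11.8 member UMIs with vehicle and 13.9 and 16.6 with IACS-70654. Their summed levels, 4088 and 4219 CPM and 3622 and 4703 CPM, overlapped.

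In monocyte progenitor-like cells a lower share stood beside fuller positive cells as well. The thinned share was 59.5% and 54.5% in ctrl, 63.1% and 63.2% with vehicle compared with 48.3% and 51.9% with IACS-70654, and member UMIs per positive cell were 8.19 and 8.13 with vehicle compared with 8.86 and 9.66 with IACS-70654. Of 36 members edgeR called 0, where 6.63% of genes were called, with 19 at an unadjusted p under 0.05 (35.4% of genes). Here 1 fell without vehicle library 1 and 1 rose without IACS-70654 library 1. In erythroid progenitor-like cells 3 of 36 rose and 0 fell, where 1.55% of genes were called higher. Ccnb1 had 55.1 and 60.7 CPM with vehicle and 81.8 and 82.1 CPM with IACS-70654 (0.53 ± 0.07, adjusted p = 1.0e-07), Cdkn3 16.6 and 14.9 CPM and 23.4 and 24.9 CPM (0.58 ± 0.12), and Kif23 21.5 and 19.6 CPM and 32.5 and 28.9 CPM (0.58 ± 0.10), and DESeq2 called 1. In basophil or mast progenitor-like cells Kif23 rose with IACS-70654 (0.62 ± 0.18, adjusted p = 0.0060), as 1 of 36 where 3.56% of genes were called higher, and Nusap1 (0.64) and Ube2c (0.55) rose in vehicle mice compared with ctrl, as 2 of 36 where 0.844% were called higher. The call of Kif23 was lost without either vehicle library or IACS-70654 library 1, and without IACS-70654 library 2 the 1 called member was lower. The count against ctrl was 0 without ctrl library 1 and 1 without ctrl library 2 or vehicle library 1, and DESeq2 called 0 in both comparisons. Stem cell (HSC)-like cells had 0 calls among 24 tested members by edgeR, where 1.07% of genes were called, with 1 at an unadjusted p under 0.05 (13.5% of genes), and 1 rose without IACS-70654 library 1.

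Lists of other cell cycle genes were described beside the members. Of 43 genes of S phase, 4 rose and 0 fell in the pooled precursors, where 13.5% of genes were called higher, among them Ung (1.54), a uracil glycosylase. Their summed level was 0.22 higher on the log2 scale of CPM, while TMM scaling set treated libraries 0.30 lower and the median fitted change of the list was -0.04. In the Dntt+ class 6 of 42 tested fell, led by Tyms (-0.92) and Gmnn (-0.89), where 2.22% of genes were called lower. In basophil or mast progenitors 8 of 43 fell, led by Rrm2 (-0.93) and Cdc6 (-0.89), where 4.92% were called lower. In the Flt3+ class 3 of 43 fell, among them Cdc45 (-0.61) and Rrm2 (-0.59), where 3.1% were called lower. Of 27 other G2/M genes, 5 fell in the pooled precursors, where 9.79% of genes were called lower, namely Ckap2 (-0.70), Gtse1 (-0.56), Hmgb2 (-0.53), Cdca2 (-0.51) and Hjurp (-0.51). In the Dntt+ class 9 of 24 tested fell, led by Gas2l3 (-1.63) and Cdca8 (-1.32). Their medians were -0.35 and -0.66, with a median of all genes near 0.

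Genes that regulate the members were described next, and in the pooled precursors their counts are read against the same 9.79% of genes called lower. Foxm1 (-0.67), a transcription factor of G2/M genes, and Lin9 (-0.55), a MuvB subunit, fell there, as 2 of 11 genes of that list. Of 11 G2 brakes and CDK inhibitors, Ccng2 (-0.75), Gadd45a (-0.68) and Cdkn1a (-0.64) fell there. In HSPC neutrophil progenitors 3 of these 11 rose, where 3.08% of genes were called higher, namely Cdkn1a (1.07), which encodes the CDK inhibitor p21, Cdc25b (0.76), which is an activator of Cdk1, and Cdkn1b (0.66), which encodes p27. Cdkn1a also rose in the Flt3+ class (1.46) with Ccng2 (0.75) and Cdkn2c (0.64), where 2.63% were called higher. It rose in basophil or mast progenitors (1.69), where 3.56% were called higher, and in monocyte progenitors (0.97), where 3.6% were, with Cdkn1b as the only other gene of the list that rose in each. Of 16 APC/C subunits, 0 changed in the pooled precursors by edgeR. In mature neutrophil-like cells 4 rose, Cdc16 (1.42), Anapc13 (0.77), Anapc1 (0.76) and Anapc10 (0.65), where 11.5% of genes were called higher. Of 14 condensin, cohesin and separase genes, Ncaph (-0.55) and Ncaph2 (-0.54) fell in the pooled precursors. In the Dntt+ class 2 of 13 tested fell, Pttg1 (-1.32), which encodes securin, and Smc2 (-0.69).

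In 2208L tumors each condition had 1 library, so ratios were given with 95% intervals that cover counting error only and no test between conditions was run. Tumor epithelial-like cells had 1467 to 1629 CPM of Epcam and tumor-associated macrophages (TAMs) 12.5 to 19.8 CPM. Trp53 was counted at 61.0 to 68.1 CPM in tumor epithelial-like cells and 48.6 to 54.0 CPM in TAMs, and these 3′ counts do not show which part of the gene is deleted, so they do not check the label. In TAMs the summed member level was 677 CPM with vehicle but 375 CPM after IACS-70654, so that the log2 ratio was -0.85 (-0.91 to -0.79), and 839 CPM with anti–PD-1 and 380 CPM with the combination, -1.14 (-1.21 to -1.08). Of 36 members, 33 were lower by more than 0.5 on the log2 scale with IACS-70654 and 0 higher, where 11.5% of genes were that much lower, and 34 were lower with the combination compared with anti–PD-1 and 0 higher, where 13.6% were. The exceptions were Cks2 (-0.33), Cdkn3 (-0.0031) and Cdc25c (0.25) in the first pair and Cks2 (-0.39) and Ttk (0.32) in the second.

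The largest ratios in TAMs were those of Cdc20 (-1.68), Bub1b (-1.47), Plk1 (-1.39), Bub1 (-1.32) and Ttk (-1.31), the last a checkpoint kinase, with IACS-70654, and of the kinetochore gene Nuf2 (-1.76), Bub1 (-1.64), Kif15 (-1.62), Hmmr (-1.60) and Ccnb2 (-1.58) with the combination. Ube2c had 51.3 CPM with vehicle and 22 CPM with IACS-70654, and 52.2 CPM with anti–PD-1 and 23.5 CPM with the combination. Birc5 had 57.7 and 28.9 CPM, and 76.6 and 26.6 CPM. Mki67 had 44.6 and 25.5 CPM, and 69.2 and 28.7 CPM. In all 3 the libraries with IACS-70654 were the lower ones in each pair. Cells with at least 3 members made up 7.05% of thinned TAMs with vehicle (47 of 667), 2.88% with IACS-70654 (70 of 2434), 9.25% with anti–PD-1 (49 of 530) and 2.93% with the combination (67 of 2283). TAM markers summed to 64695 CPM with vehicle, 90656 CPM with IACS-70654, 56329 CPM with anti–PD-1 and 91830 CPM with the combination, and epithelial markers to 57 to 74 CPM in TAMs. Clustering that admitted cell cycle genes set apart 296 cells with 5874 CPM of members, and then 18 of 25 compared members were lower and 1 higher in TAMs with IACS-70654, and 18 of 22 were lower and 0 higher with the combination.

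**Figure D5:**
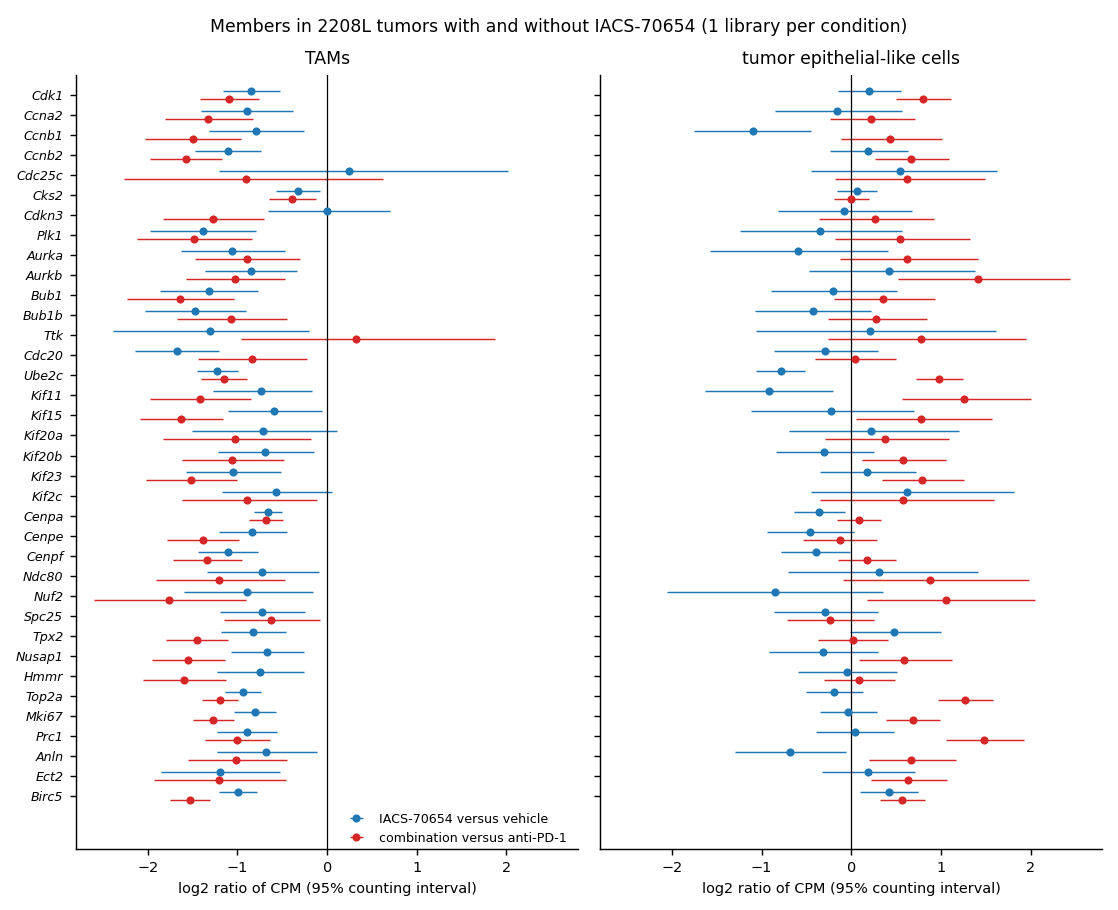
Log2 ratio of CPM of each member with and without IACS-70654 (vehicle pair, blue; anti–PD-1 pair, red) in TAMs and tumor epithelial-like cells, with 95% intervals for counting error and 1 library per condition. In TAMs 33 and 34 of 36 ratios lie below -0.5, and in tumor epithelial-like cells 22 of 36 lie above 0.5 in the anti–PD-1 pair.

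In tumor epithelial-like cells the 2 pairs differed. With IACS-70654 the summed level was 301 CPM compared with 330 CPM for vehicle, a log2 ratio of -0.13 (-0.21 to -0.056), and 6 of 36 members were lower and 2 higher by more than 0.5, where 8.79% of genes were lower and 17.8% higher. The direction in this pair was not stable. Without the highest doublet scores 7 of 36 were higher and 2 lower, near the 20.1% and 8.75% of all genes. Without integration 10 of 34 were higher and 2 lower, where 22.1% of genes were higher and 8.73% lower. In clusters that admitted cell cycle genes 1 of 36 was higher and 17 lower, where 16.7% of genes were higher and 9.63% lower. With the combination the summed level was 410 CPM compared with 287 CPM for anti–PD-1, 0.51 (0.44 to 0.58), and 22 of 36 members were higher and 0 lower, where 17.2% of genes were higher. Top2a had 12.8 CPM with anti–PD-1 and 30.8 CPM with the combination (1.27), and Ube2c 17.9 and 35.2 CPM (0.98). Prc1, which bundles the microtubules of the midzone (1.48), Aurkb (1.42) and Kif11, the kinesin that separates spindle poles (1.25), were among the largest. In the vehicle pair Ube2c was lower, at 33.6 and 19.5 CPM (-0.79), as were Ccnb1 (-1.10) and Kif11 (-0.92). Positive cells made up 2.81% with vehicle, 3.41% with IACS-70654, 3.47% with anti–PD-1 and 5.45% with the combination. Without thinning the order turned in both pairs, at 19.6%, 18.1%, 20.1% and 19.4%.

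Other tumor classes held fewer members with at least 20 UMIs. In T or NK cell-like cells the summed level was 1843 CPM with anti–PD-1 and 527 CPM with the combination (log2 ratio -1.81, -1.99 to -1.62). Epcam there was at 48.0 and 21.1 CPM and Ptprc at 1224 and 774 CPM in the same libraries, and their part was not tested. In the vehicle pair the ratio of sums was -0.037 (-0.31 to 0.24), with 3 of 7 compared members lower and 2 higher, where 18.5% of genes were lower and 22.8% higher. Of the members compared, 3 of 4 were lower and 0 higher without the highest doublet scores, and 3 of 5 were lower and 1 higher without integration, where 20.3% and 17.5% of genes were lower. In dendritic cell-like cells the ratios of sums were -1.05 and -0.64, and 8 of 9 and 11 of 17 compared members were lower, where 17.1% and 17.9% of genes were. In the second pair 4 were higher and 3 lower of 15 compared without the highest doublet scores, near the 25.3% of all genes that were higher and 17.7% lower. Epcam in these cells was at 189 CPM with vehicle but 76.6 CPM with IACS-70654, and at 294 CPM with anti–PD-1 but 57.4 CPM with the combination, and its part in the result was not tested. In monocyte-like cells the ratios of sums were -0.29 and -0.063. Of 23 compared members 7 were higher and 7 lower in the vehicle pair, where 18.3% of genes were higher and 12.8% lower. In the anti–PD-1 pair 4 of 21 were higher and 6 lower, where 17.9% of genes were higher and 12.9% lower. Without integration 19 of 32 compared members were lower there in the vehicle pair and 3 higher, where 13.1% of genes were lower, and in the anti–PD-1 pair 24 of 28 were higher and 0 lower, where 21.1% of genes were higher. Tumor-associated neutrophils had 2 members with enough UMIs, and their ratios of sums were 0.34 (0.05 to 0.63) in the vehicle pair and 0.81 (0.56 to 1.07) in the anti–PD-1 pair. These ratios are on CPM and depend on scaling. The median ratio of the 2 members in these neutrophils was 0.34 on CPM but 0.18 after TMM scaling in the vehicle pair. In the anti–PD-1 pair it was 0.70 on CPM and 0.55 after TMM scaling. Epcam in these cells was at 33.3 CPM with vehicle but 53.5 CPM with IACS-70654, and at 45.6 CPM with anti–PD-1 but 67.8 CPM with the combination, and its part was not tested. Of thinned neutrophils 0 of 20 with vehicle, 0 of 33 with IACS-70654 and 0 of 51 with anti–PD-1 were positive, which allows shares of up to 15%, 9.09% and 5.88%.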

How the data were processed

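Single-cell RNA was measured by 10x 3′ libraries from sorted BM and tumor cells. The authors aligned reads to mm10 and counted UMIs with Cell Ranger 7.1.0 (tumor) and 7.2.0 (BM), and the deposited matrices hold raw UMI counts per gene and cell. Here, libraries of a sort were integrated with Seurat 5.3.0 and clustered with leidenalg 0.10.2 on a graph of shared neighbors (2000 variable genes, 30 components, 20 neighbors, Leiden resolution 1) with 408 cell cycle genes left out. The rule that named clusters from marker lists was set after clusters were seen. Doublets were kept. Total UMIs per library were 27816638 to 54510172 (CD45+), 27427163 to 68415534 (HSPC) and 15590289 to 43594797 (tumor).

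Counts were summed per class and library (at least 20 cells) and tested with edgeR 4.0.16 in R 4.3.3 (TMM, quasi-likelihood, all 6 libraries of a sort, Benjamini-Hochberg), with DESeq2 1.42.0 as an alternative. On simulated counts 86% of genes changed by 1 on the log2 scale and 28% of those changed by 0.6 were recovered among 10412 genes of the specific-granule stage. The simulation used a fixed spread, not that of the data, and changed only genes above a set level. It does not give the sensitivity of the calls themselves. Tumor ratios used genes with at least 20 UMIs. Member shares and sums were not tested.

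Members and lists were chosen with earlier results of these data known. The text names the most abundant member of each role, up to 5 called members by size, members called against the majority and up to 5 called genes of other lists. Values of the unnamed cluster and other called members were named after they were seen.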

Additional observations from a re-analysis of the deposited data

Results flagged for a closer look

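The effect of IACS-70654 on 21 of 36 members was higher in neutrophil progenitors of the HSPC sort than in the pooled neutrophil precursors of the CD45+ sort, by the interaction term in edgeR, where 18.7% of genes were called. Against the azurophil stage alone it was higher for 7 members, where 4.44% of genes were called. Both counts were made with TMM scaling, which in the fits of single classes set treated libraries 0.30 lower than CPM in the pool and 0.05 lower in the progenitors, and with integrated clusters, without which summed members were higher with IACS-70654 in the pool (0.17) and in the progenitors (0.24). Within the HSPC sort, the effect of IACS-70654 was higher for 17 of 36 members in Flt3+ multipotent progenitors than in Dntt+ lymphoid-primed progenitors, where 0.683% of genes were called. All of these interaction terms were added after the data were seen, for classes whose calls already ran in opposite directions. In tumor epithelial-like cells, the log2 ratio of summed members in the anti–PD-1 pair exceeded that in the vehicle pair by 0.64, which was not tested because each condition had 1 library.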

How the results depend on the processing

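Results were split into 2 sets. The first held BM counts with over 2 calls or in the neutrophil precursor classes. It also held sums and shares of selected BM classes and counts in TAMs and tumor epithelial-like cells. Of the first set, 234 values under an alternative were kept, 67 moved and 9 reversed. Of the other counts 335 were kept, 98 moved and 5 reversed. Kept values did not reverse and lay within a set factor for counts, or within the SD between replicates for sums and shares. Kept values include small shifts and counts of 0 that stayed at 0, and a main count of 0 could not reverse. The cause of a move was not tested unless stated. DESeq2 called 1 member in the azurophil stage in each comparison, 2 in mature neutrophils, 1 for vehicle compared with ctrl in the pooled precursors, 1 each in Dntt+, Flt3+, erythroid and neutrophil progenitors and 0 for vehicle compared with ctrl in megakaryocyte progenitors. With an adjusted p under 0.05 and no fold threshold, calls numbered 10 and 8 in the azurophil stage (IACS-70654, then vehicle compared with ctrl), 19 and 9 in the specific-granule stage, 34 and 21 in the pooled precursors, 30 in all CD45+ cells, 18 in Flt3+, 19 in erythroid and 15 in neutrophil progenitors and 11 for vehicle compared with ctrl in megakaryocyte progenitors. These counts join both directions. The share of all genes lower at this threshold with IACS-70654 was 27.2% in the pooled precursors and 13.8% in the specific-granule stage. No such share is given for the other classes, so their counts are not a result about the members. At the thresholds of a call, the specific-granule stage with the unnamed cluster had 8 and 1 calls, and both stages with it had 10. For the specific-granule stage with that cluster no share of all genes is given, so its counts are not a result about the members.

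Clusters that admitted cycle genes reversed the 2 azurophil calls with IACS-70654 and left 1 for vehicle compared with ctrl, 3 in megakaryocyte progenitors, a sum difference of 0.24 in neutrophil progenitors, 19 and 18 members past the fold in TAMs (the cycling cells form their own cluster there), 18 in tumor epithelial-like cells with IACS-70654 and a reversed 2 in tumor monocytes with the combination. Clusters without integration, chosen after seeing the data, reversed the azurophil count (6), the pooled precursors' sum (0.17) and share (15.6 points), basophil or mast progenitors (5), tumor monocytes with the combination (24) and tumor epithelial-like cells with IACS-70654 (12). They gave 0 azurophil calls for vehicle compared with ctrl, 2 in mature neutrophils, 2 in the pooled precursors, 9 in Dntt+ and 10 in megakaryocyte progenitors, sums of 0.24 in neutrophil progenitors and -0.62 in Dntt+ progenitors, and a share of -1.19 points in Flt3+ progenitors.

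Without thinning, share differences were 3.04 points in the pooled precursors (reversed), -11.3 in Flt3+, -16.3 in Dntt+ and 1.32 in erythroid progenitors. With at least 5 members they were 5.38 points in neutrophil progenitors (reversed) and -0.31 in Flt3+ progenitors. TMM scaling gave sums of -0.45 in the pooled precursors and 0.14 in neutrophil progenitors. Without the highest doublet scores, also chosen after seeing the data, tumor dendritic cells (7, combination) and tumor epithelial-like cells (9, IACS-70654) reversed, and with at least 50 UMIs the latter had 4. Without these scores both counts lay near the shares of all genes, so the 2 reversals are not a result about the members.

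Leaving out 1 library gave 1 to 4 calls in the azurophil stage with IACS-70654 and 0 to 3 for vehicle compared with ctrl, 2 to 6 in mature neutrophils, 0 to 1 in the specific-granule stage with IACS-70654 (0 to 0 for vehicle compared with ctrl), 2 to 5 in all CD45+ cells, 7 to 18 and 1 to 5 in the pooled precursors, 4 to 21 in Dntt+, 2 to 7 in Flt3+, 2 to 3 in erythroid and 2 to 4 in neutrophil progenitors and 2 to 6 for vehicle compared with ctrl in megakaryocyte progenitors. Sum differences ran from -0.23 to -0.08 in the pooled precursors, 0.17 to 0.22 in neutrophil, 0.15 to 0.37 in Flt3+, -1.32 to -0.65 in Dntt+ and 0.17 to 0.24 in erythroid progenitors. Share differences ran from -6.14 to -2.57, -5.16 to 0.37 (reversed without vehicle library 2), -11.0 to -1.31, -12.9 to -7.78 and 2.06 to 7.41 points in the same order. In basophil or mast progenitors the 1 call reversed without IACS-70654 library 2 (1).

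With the replicate number as a block, the pooled precursors had 9 calls with IACS-70654 and the azurophil stage 3 for vehicle compared with ctrl, and no other count of called members in a class changed. Deviations of same-numbered libraries correlated from -0.61 to 0.16 over classes and group pairs, and in no class above 0.1 for every pair, so the numbers were not taken as pairs. The planned removal of called doublets was not run, since Scrublet called under 0.5% of cells in 5 of 6 CD45+, 6 of 6 HSPC and 3 of 4 tumor libraries. Classes with few cells, such as Dntt+ progenitors, and the 1 library per tumor condition limit what these data can resolve.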
